A study of Mus musculus with 40 samples.

Results

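The genes described here are those of the cell division cycle and of DNA replication. A list of 37 proliferation genes was looked up by symbol in the deposited table of log2 TPM values (a transcript level scaled for gene length and library total), and 36 of the 37 had a row among its 15958 genes; *Chek1* had none. The members were chosen by name and not by their values. They were ordered by role into 10 genes of origin licensing and the replication helicase, 4 of the sliding clamp and nucleotide supply, 3 of G1 to S control, and 19 of G2 and mitosis.

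RNA was sequenced from 40 libraries of wild-type male C57BL/6 mice that were operated on at 8 weeks of age. Mice had sham surgery or small bowel resection (SBR, removal of 50 to 60% of the small intestine according to the labels, while the methods of the study state a larger extent). From some weeks after surgery they received vehicle or WUSTL0717, at 30 mg/kg a day for 7 weeks. The study describes WUSTL0717 as a gut-restricted liver X receptor agonist. The duodenum and the ileum below the anastomosis each gave 3 sham vehicle, 4 SBR vehicle and 4 SBR WUSTL0717 libraries, and the liver gave 5, 8 and 5. Sham mice given WUSTL0717 were not among the groups, so the agonist was compared only within SBR. The labels do not state which tissues came from the same mouse, and p-values measure the spread between the libraries of a group.

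The number of reads behind a value is unknown, since the table holds no counts. All intestinal libraries formed batch 1 and all liver libraries batch 2, and the deposited values had been batch-corrected by the authors. The summed level of 10 hepatocyte markers (log2 of the sum of TPM plus 1) was 11.17 to 12.35 across liver libraries and 10.65 to 13.83 across intestinal ones, so these markers did not set the liver apart. Of the 7 Paneth cell markers in the table, 2 were at or below 0 throughout each liver group and none throughout an intestinal group. The villus enterocyte sum was 12.58 to 13.83 in liver and 11.35 to 14.82 in intestinal libraries. Crypt stem cell sums were 5.99 to 7.53 in liver and 5.48 to 7.68 in intestinal libraries. Sums of crypt, Paneth, villus enterocyte or goblet cell markers in the liver thus do not show that such cells were present. Liver levels were not compared with intestinal levels. Within batch 1 the regions could be told apart, because 6 of the 7 exocrine pancreas markers in the table were at or below 0 in every ileal library and none was in the duodenal groups. SBR vehicle library 7 of the liver stood apart by an exocrine pancreas sum of 11.72, against 4.84 to 5.37 in the other 7 libraries of its group. No 2 libraries held identical values.

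As background, a cell that leaves G1 raises cyclin D and E2F activity, loads the MCM helicase at replication origins, copies its DNA in S phase with the PCNA clamp and a supply of deoxynucleotides, and then switches on a second set of genes for chromosome condensation, the spindle and cyclin B kinase activity. S phase genes are known targets of E2F factors, whereas many G2 and mitosis genes carry a CCAAT box and a cell cycle genes homology region (CHR) in their promoters. In the small intestine these genes are active mainly in the crypts, which renew the epithelium without pause. In the adult liver most hepatocytes are quiescent and re-enter the cycle after injury or loss of mass.

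Promoters of 6 members with large changes in the liver are shown here, because the 2 classes of element can be seen in them. The sequences are those of RefSeq for GRCm38.p6, written 5′ to 3′ on the strand of the gene, each drawn from the 250 bases before the RefSeq start. Capitals mark CCAAT (or ATTGG, its reverse complement), TTTGAA (or TTCAAA), and the E2F motifs TTTCGCGC and TTTGGCGC on either strand. In *Mcm6* 2 E2F matches on opposite strands overlap in the first stretch of capitals.
Mcm6 (chr1:128359706-128359825, minus strand): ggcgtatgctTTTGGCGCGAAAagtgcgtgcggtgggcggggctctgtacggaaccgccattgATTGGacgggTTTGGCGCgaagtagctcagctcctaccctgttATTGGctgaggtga
Cdk1 (chr10:69352913-69353052, minus strand): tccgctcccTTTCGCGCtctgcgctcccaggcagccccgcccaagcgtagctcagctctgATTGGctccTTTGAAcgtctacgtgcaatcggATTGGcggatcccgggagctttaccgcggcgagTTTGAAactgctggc
Cdc20 (chr4:118437344-118437413, minus strand): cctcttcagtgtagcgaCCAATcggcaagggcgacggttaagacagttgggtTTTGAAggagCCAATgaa
Top2a (chr11:99024190-99024299, minus strand): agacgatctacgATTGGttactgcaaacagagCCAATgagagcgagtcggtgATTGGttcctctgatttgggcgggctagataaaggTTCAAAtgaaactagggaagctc
Ube2c (chr2:164769829-164769928, plus strand): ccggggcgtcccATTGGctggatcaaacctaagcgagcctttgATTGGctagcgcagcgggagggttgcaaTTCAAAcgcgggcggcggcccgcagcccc
Mki67 (chr7:135716380-135716579, minus strand): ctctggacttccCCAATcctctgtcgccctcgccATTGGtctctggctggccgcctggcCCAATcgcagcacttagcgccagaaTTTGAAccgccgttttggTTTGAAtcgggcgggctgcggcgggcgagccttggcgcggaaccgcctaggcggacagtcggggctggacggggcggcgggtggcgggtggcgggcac
RefSeq held 30 promoters for 29 of the 36 members, *Mcm7* having 2, and 32851 promoters in all. In the 250 bases before the start, CCAAT was found on either strand in 24 of the 30 member promoters (80%) and in 33.8% of all promoters. TTTGAA was found in 9 of the 30 (30%), all 9 of which also held CCAAT, whereas 16% of all promoters held TTTGAA and 5.55% held both. Among the 15 promoters of G2 and mitosis members, 14 held CCAAT (93.3%) and 7 held TTTGAA (46.7%), among them those of *Cdk1*, *Cdc20*, *Top2a*, *Ube2c* and *Mki67*. The E2F motifs were found in the promoters of *Mcm5*, *Mcm6* and *Cdk1* (10%) against 0.654% of all promoters. These matches describe letters in a window and were not tested, and bulk expression does not show what binds there.

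In the batch-corrected values of sham mice *Pcna* and *Ccnd1* were the 2 highest members in every tissue. Because tissue ran with batch, the correction can carry the order of genes from one batch to the other. The order in the liver, and its likeness to that of the intestine, is therefore not read as a result. In the duodenum the sham means ran from a log2 TPM of 1.00 for *Cdc6*, the origin loading factor, to 4.48 for *Pcna*, the sliding clamp. *Ccnd1*, the G1 cyclin D1, was next at 4.18 ± 0.48 (SD, n = 3), and *Rrm2*, the small subunit of ribonucleotide reductase, followed at 3.83 ± 1.04; these 3 neighbours overlapped in their spread. In the ileum *Ccnd1* led at 7.01 ± 0.19 and was well clear of *Pcna* at 5.35 ± 0.57, with *Cdc6* again lowest at 1.60. In the liver the sham means ran from 0.83 for *Gins2*, a subunit of the helicase complex, to 4.63 ± 0.18 (SD, n = 5) for *Pcna*, and *Ccnd1* was at 3.93 ± 0.41. *Mki67*, the antigen of cycling cells, was at 3.52 ± 0.13 in sham duodenum, 4.50 ± 0.36 in sham ileum and 2.44 ± 0.06 in sham liver, the last on its own batch scale. *Cdc6*, *Gins2* and *Bub1* had a mean below a log2 TPM of 1 over the duodenal libraries and were not tested there, which left 33 members in the duodenum and 36 in the ileum and the liver.

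**Figure D1:**
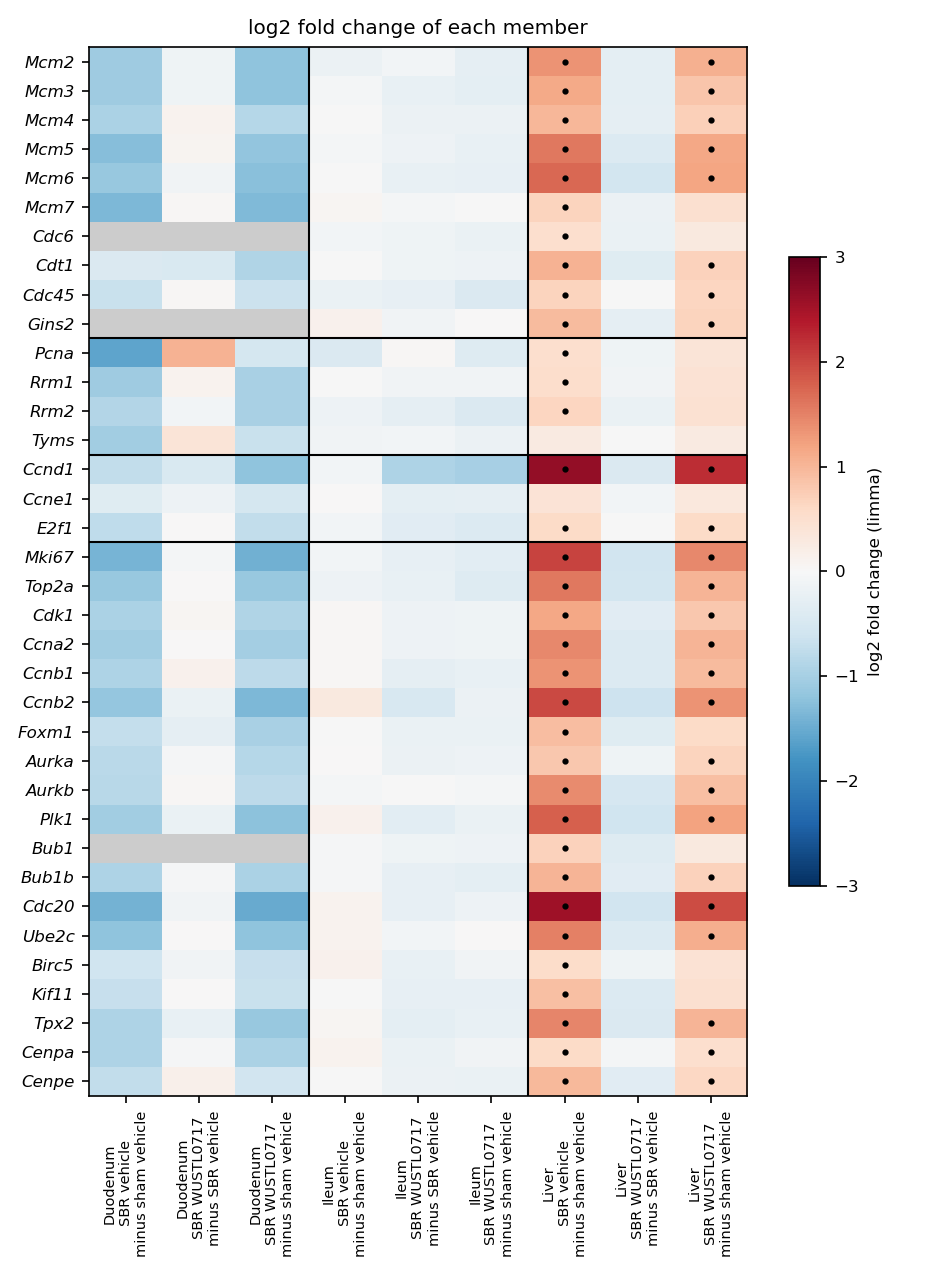
The heat map gives the log2 fold change of each of the 36 members (rows, in the order of the 4 roles, black lines between them) in the 9 comparisons (columns, 3 for each tissue), with red for higher and blue for lower, grey for not tested, and a black dot where limma's adjusted p was below 0.05. Dots appear only in the liver columns, at 34 members after SBR with vehicle and at 25 after SBR with WUSTL0717, both against sham.

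The liver comparison asked which genes differ between SBR and sham mice given vehicle. All 36 members were higher in SBR livers, by a median log2 fold change of 1.01 (range 0.27 to 2.64), against a median of 0.25 over the 15901 genes tested. Of the 36, 34 rose at an adjusted p below 0.05 (limma, Benjamini-Hochberg), where 37.4% of all genes tested were called higher and 41.9% were called in either direction. In 27 of the 36 every SBR library lay above every sham library, which held for 15.6% of all genes. When libraries were each centred on their own median, the all-gene median moved from 0.25 to -0.06, the member median was 0.71, 35 of 36 members were still higher and 27 were called, with 49.2% of all genes. The same centring changed the calls over all genes from 5953 higher and 710 lower to 3234 higher and 4594 lower.

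The origin licensing and helicase genes rose as a block, with 10 of 10 called and a median of 1.02. *Mcm6* (chromosome 1, 128331590 to 128359664), one of the 6 subunits of the MCM2-7 ring, had sham values of 2.80, 2.49, 2.68, 2.70 and 2.81, and SBR vehicle values from 3.97 to 5.26 with a median of 4.32. The groups did not overlap, and the difference of 1.72 (SE 0.21, 3.30-fold) had an adjusted p of 3.17e-06. *Mcm2* (chromosome 6, 88883474 to 88898780) had sham values of 1.96, 1.81, 2.46, 2.33 and 1.98, and SBR vehicle values from 3.04 to 4.31 with a median of 3.40. It rose by 1.36 (SE 0.20, adjusted p = 3.03e-05). *Mcm5* rose by 1.57, *Mcm3* by 1.13, *Cdt1*, which brings the ring to the origin, by 1.04, *Mcm4* by 1.00 and *Gins2* by 0.96, while *Cdc45*, the other helicase partner, *Mcm7* and *Cdc6* rose by 0.67, 0.66 and 0.50. *Mcm7* was the one of the 10 whose groups overlapped.

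The clamp and nucleotide supply genes were higher by less, with a median of 0.51 and 3 of 4 called, and in none of the 4 were the groups apart. *Pcna* (chromosome 2, 132249162 to 132253314) had sham values of 4.56, 4.39, 4.68, 4.87 and 4.67, and SBR vehicle values from 4.36 to 5.54 with a median of 5.23. One SBR library lay below all sham libraries, and the rise of 0.50 (SE 0.16) had an adjusted p of 0.0186. That call was lost with centred libraries (0.20, adjusted p = 0.0644), with a two-sample test (adjusted p = 0.0545) and without sham library 2 (adjusted p = 0.0602). *Rrm2* and *Rrm1*, the ribonucleotide reductase subunits, rose by 0.66 and 0.52, and *Tyms*, thymidylate synthase, was higher by 0.27 with an adjusted p of 0.113.

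The largest difference among the members was that of *Ccnd1* (chromosome 7, 144929931 to 144939925). Its sham values were 4.56, 3.45, 3.72, 3.87 and 4.02, and its SBR vehicle values ran from 6.31 to 7.13 with a median of 6.44. Every SBR library was above every sham library, and *Ccnd1* rose by 2.64 (SE 0.20, 6.24-fold, adjusted p = 2.87e-08). *E2f1*, the transcription factor that opens S phase, rose by 0.58 (SE 0.13, adjusted p = 0.00109), also with no overlap. *Ccne1*, cyclin E1, was higher by 0.41 (adjusted p = 0.105).

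Among G2 and mitosis members 19 of 19 were called, with a median of 1.35, and 16 had no overlap between groups. *Cdc20* (chromosome 4, 118432901 to 118437352), the activator of the anaphase-promoting complex, had sham values of 2.25, 2.26, 2.37, 2.32 and 2.45, and SBR vehicle values from 4.49 to 5.48 with a median of 4.84. It rose by 2.54 (SE 0.27, 5.81-fold, adjusted p = 7.44e-07). *Mki67* (chromosome 7, 135689784 to 135716361) had sham values of 2.41, 2.40, 2.44, 2.40 and 2.55, and SBR vehicle values from 3.95 to 5.35 with a median of 4.48. The sham libraries lay close together, whereas the SBR libraries spread widely above them, and the rise was 2.03 (SE 0.27, 4.08-fold, adjusted p = 7.42e-06). *Aurkb* (chromosome 11, 69045647 to 69051664), the kinase of the chromosomal passenger complex, rose by 1.41 (SE 0.17, adjusted p = 3.84e-06), and *Tpx2*, a spindle assembly factor, by 1.46 (SE 0.21, adjusted p = 1.9e-05).

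*Top2a* (chromosome 11, 98992943 to 99024189), which untangles sister chromatids, had sham values between 2.02 and 2.20 and SBR vehicle values between 3.00 and 4.61, a rise of 1.58 (SE 0.25, adjusted p = 5.04e-05). *Cdk1* (chromosome 10, 69335146 to 69352938), the kinase of mitotic entry, had sham values between 1.36 and 1.55 and SBR vehicle values between 2.20 and 3.40, a rise of 1.17 (SE 0.23, adjusted p = 0.000414). Its partner *Ccnb1* (chromosome 13, 100778650 to 100786570) had sham values between 1.14 and 1.33 and SBR vehicle values between 2.16 and 3.39, a rise of 1.35 (SE 0.23, adjusted p = 0.000156). None of these 3 overlapped between groups. *Ccnb2*, *Plk1* and *Ube2c* rose by 1.97, 1.80 and 1.50, and the smallest rises of the role were those of *Birc5* (0.56, adjusted p = 0.0335) and the centromere histone *Cenpa* (0.57, adjusted p = 0.00716). *Foxm1*, a factor that drives mitosis genes, rose by 0.94 (adjusted p = 0.00484), but sham library 1 stood at 2.76 against 1.43 to 1.62 in the other 4. The exact two-sided permutation test gave 0.000777, the smallest p that 8 against 5 libraries allow, for every member with no overlap except *Aurka*, *Cdc6* and *Cdc45* (0.00233, 0.00388 and 0.00932).

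**Figure D2:**
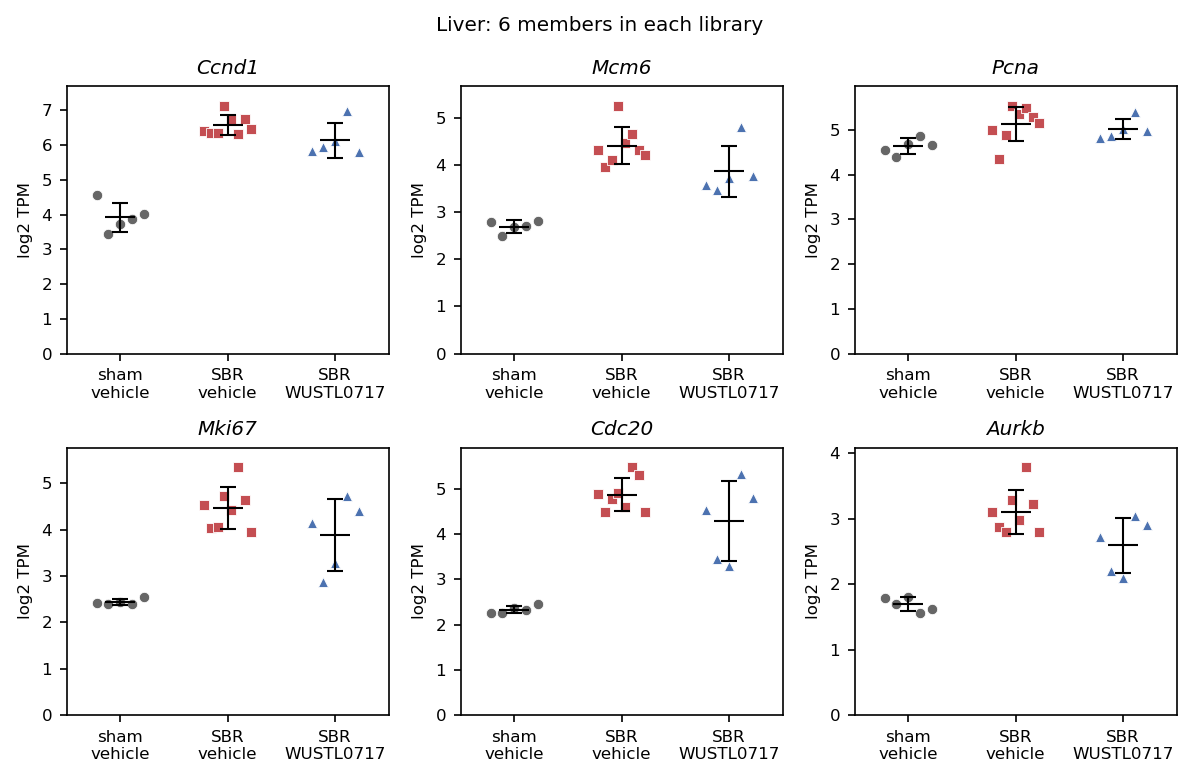
Each panel plots the log2 TPM of 1 member in every liver library (points) by group, with black bars for the group mean and its SD (n = 5, 8 and 5). *Ccnd1*, *Mcm6*, *Mki67*, *Cdc20* and *Aurkb* have no overlap between sham and SBR vehicle, *Pcna* does, and among the SBR WUSTL0717 points *Cdc20* runs from 3.30 to 5.33.

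Cell cycle genes outside the member list were described from lists chosen with these data already known in part. Their counts are to be read against the 37.4% of all genes called higher in this comparison. Of 50 other mitosis genes tested in the liver, 43 rose after SBR, with a median of 0.85, among them *Kif20a* (1.49, adjusted p = 9.01e-06), *Cdc25b* (1.01) and *Racgap1* (1.33). Of 34 other S phase genes, 19 rose and 2 fell, with a median of 0.44. *Lig1*, the DNA ligase of replication, rose by 1.26 (adjusted p = 1.27e-05), while *Tk1*, thymidine kinase, fell by 0.88 (adjusted p = 3.74e-05) and *Mcm10*, a replication initiation factor, fell by 1.01 (adjusted p = 4.97e-05), both with no overlap between groups. Of 14 other G1 cyclins, kinases and E2F factors, 10 rose, with *Myc* at 2.52 (adjusted p = 2.6e-07) and *Ccnd2* at 1.17. Of 13 cell cycle inhibitors and pocket proteins, 6 rose, including *Cdkn1a*, an inhibitor of cyclin-dependent kinases, by 2.63 (adjusted p = 3.1e-05) and *Pkmyt1*, an inhibitory kinase of CDK1, by 1.38 (adjusted p = 8.48e-07).

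Markers of other cells were counted in the same liver libraries, where 37.4% of all genes were called higher. All 8 epithelial markers were called higher, with a median of 1.45, and their summed level was 10.24 to 10.82 in sham, 11.31 to 12.31 in SBR vehicle and 11.27 to 12.24 in SBR WUSTL0717 libraries. The crypt stem cell sum was 5.99 to 6.38 in sham and 6.97 to 7.53 in SBR vehicle, and the Paneth cell sum was 6.93 to 7.19 in sham and at least 7.56 in SBR vehicle. Of 10 hepatocyte markers 4 were called lower and 1 higher (median -0.34), of 6 T cell markers 3 were called higher, and of 10 macrophage markers 4 were called higher. The T cell sum was 3.53 to 3.84 in sham and 3.85 to 4.36 in SBR vehicle. TPM totals over the table were 713274 to 755806 in sham and 781056 to 819788 in SBR vehicle, also with no overlap. Sums of intestinal markers do not show such cells in the liver. The part of these markers and totals in the member values was not tested. In bulk tissue, more cells of a dividing type and more transcript in each cell cannot be told apart. Without SBR vehicle library 7, the library with pancreatic transcripts, 33 members and 38% of all genes were called.

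WUSTL0717 was next compared with vehicle among SBR livers. All 36 members were lower with the agonist, by a median of -0.35 (lowest -0.62 for *Ccnb2*, all genes 0.02), and 0 were called by limma, where 4.1% of all genes tested were called (652 of 15901). At an unadjusted p below 0.05, 11 members were lower, against 8.72% of all genes, and limma with array weights, which lowers the weight of variable libraries, called 13 members and 17.7% of all genes (2196 of 2819 lower). The smallest adjusted p was that of *Aurkb*, 0.111, with a difference of -0.51 (SE 0.17, exact permutation p = 0.0319). Its SBR vehicle values ran from 2.79 to 3.79 with a median of 3.05, and its WUSTL0717 values were 2.72, 2.20, 2.09, 3.05 and 2.91, so the groups overlapped. By role the medians were -0.28 for licensing, -0.11 for the clamp and nucleotides, -0.09 for G1 to S control and -0.41 for G2 and mitosis.

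The 5 WUSTL0717 livers were far from uniform. *Mki67* was at 4.15, 2.86, 3.29, 4.72 and 4.39 in libraries 1 to 5, against a lowest SBR vehicle value of 3.95, and the difference was -0.58 (SE 0.27, adjusted p = 0.262). *Cdc20* was at 4.53, 3.45, 3.30, 5.33 and 4.81, with a lowest SBR vehicle value of 4.49, and differed by -0.59 (SE 0.27, adjusted p = 0.270). Libraries 2 and 3 were thus below every vehicle library in both genes, while library 4 was among the highest livers of either group. Averaged over the 19 G2 and mitosis members, the 5 libraries were at 2.96, 2.18, 2.27, 3.52 and 3.11, against 2.83 to 3.93 in SBR vehicle and 1.87 to 1.96 in sham. Averaged over the other 17 members, they were at 3.03, 3.00, 3.14, 3.87 and 3.08, against 3.06 to 4.11 in SBR vehicle and 2.36 to 2.57 in sham. Libraries 2 and 3 stood nearer to sham in the mitosis mean than the other 3 did, and did not stand out from libraries 1 and 5 in the mean of the other members. The same libraries had the lowest sums of the 5 for epithelial (11.27 and 11.31), crypt stem cell (6.77 and 6.43), Paneth cell (7.34 in both), T cell (3.75 and 3.67) and macrophage markers (8.91 and 8.96), and TPM totals over the table of 735450 and 686816, against 766832 to 788773 in the other 3. The part of these in the member values was not tested. Without library 4, 6 of the 36 members were called lower (6.76% of all genes called, 830 of 1075 lower), and the member median was -0.51. Without library 2 the median was -0.22, 30 of the 36 were lower, 0 were called where 0.711% of all genes were, and *Mki67* differed by -0.33.

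**Figure D3:**
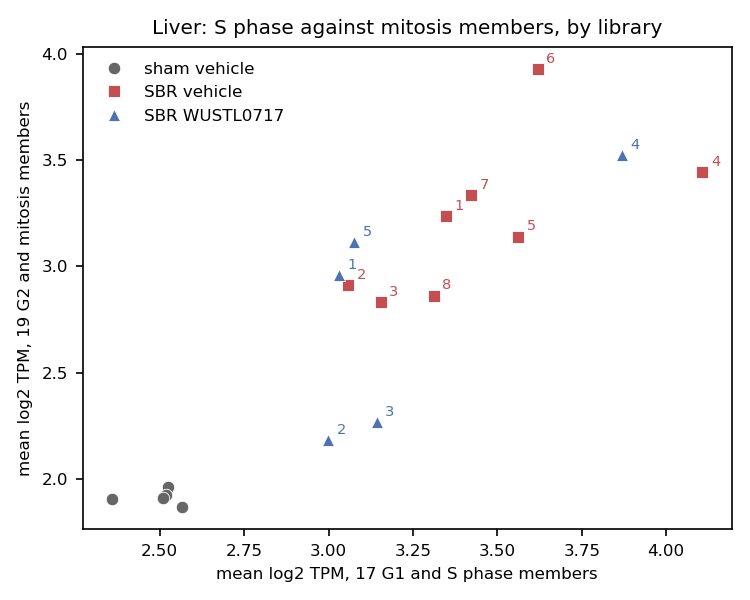
Each point is a liver library, with the mean log2 TPM of the 17 G1 and S phase members on the horizontal axis and that of the 19 G2 and mitosis members on the vertical axis (sham vehicle, SBR vehicle and SBR WUSTL0717, numbers giving the replicate of SBR libraries). The 5 sham libraries lie in a tight cluster at a mitosis mean of 1.87 to 1.96, and WUSTL0717 libraries 2 and 3 lie at 2.18 and 2.27, below the 2.83 of the lowest SBR vehicle library.

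*Ccnd1* and *Mcm6* shared the high library 4 but not the order of the other 4. *Ccnd1* was at 5.83, 5.94, 6.12, 6.99 and 5.81 with WUSTL0717, and 4 of the 5 libraries lay below the lowest vehicle value of 6.31 (difference -0.43, SE 0.20, adjusted p = 0.284). *Mcm6* was at 3.58, 3.47, 3.73, 4.81 and 3.76, with 4 of the 5 below the lowest vehicle value of 3.97 (difference -0.55, SE 0.21, adjusted p = 0.164). In both genes library 4 was the exception. *Top2a* differed by -0.56 (adjusted p = 0.242), *Ccnb1* by -0.41 (adjusted p = 0.407), *Cdk1* by -0.35 (adjusted p = 0.477), *Mcm2* by -0.28 (adjusted p = 0.540), *Rrm2* by -0.20 (adjusted p = 0.706) and *Pcna* by -0.12 (adjusted p = 0.809). Outside the members, *Ccnd2*, cyclin D2, fell by 0.49 (adjusted p = 0.0381), and *Mcm10* rose by 0.62 (adjusted p = 0.0323). Of 8 epithelial markers 3 were called lower with WUSTL0717 and none higher, and 9 of 10 hepatocyte markers were higher with none called.

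Against sham, the livers of SBR mice given WUSTL0717 had 36 of 36 members higher, by a median of 0.69 (all genes 0.27). Of the 36, 25 rose, where 27.9% of all genes were called higher and 28.8% in either direction. By role these were 8 of 10 licensing, 0 of 4 clamp and nucleotide, 2 of 3 G1 to S and 15 of 19 mitosis members. *Ccnd1* rose by 2.21 (SE 0.23, adjusted p = 4.82e-06), *Cdc20* by 1.95 (SE 0.30, adjusted p = 0.000263), *Mcm6* by 1.17 (SE 0.23, adjusted p = 0.0017) and *Mki67* by 1.44 (SE 0.30, adjusted p = 0.00217). *Pcna* was higher by 0.39 (SE 0.18, adjusted p = 0.108). This comparison and that of SBR vehicle share the sham libraries, and the number of members called was 16 with centred libraries, where 19.6% of all genes were called, and 17 without WUSTL0717 library 4, where 15.4% were. With centred libraries the member median was 0.39 (all genes -0.03) and 3 members were lower. Marker sums also differed from sham with no overlap, though sums of intestinal markers do not show such cells in the liver. In WUSTL0717 livers the crypt stem cell sum was 6.43 to 7.24 and the Paneth cell sum 7.34 to 8.05, above the sham ranges given above, as was the epithelial sum. The macrophage sum was 8.91 to 9.26 against 8.16 to 8.60 in sham, the villus enterocyte sum 13.37 to 13.83 against 12.92 to 13.16, the germinal centre B cell sum 4.26 to 4.55 against 3.60 to 4.03, and the goblet cell sum 8.00 to 8.51 against 8.70 to 10.39. Their part in the member values was not tested.

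In the duodenum the direction was the opposite one, and no member passed the test. All 33 members tested were lower after SBR with vehicle than in sham, by a median of -0.95 (range -1.57 to -0.36), where the median over 15093 genes was -0.36. By limma 0 members were called, and 0% of all genes were called in this comparison. At an unadjusted p below 0.05, 22 of the 33 were lower, against 12.7% of all genes, and in 14 of the 33 every SBR library lay below every sham library, against 6.24% of all genes. The smallest adjusted p of a member was 0.274. With centred libraries 32 of 33 were lower, with a median of -0.55. Limma with array weights called 19 members, all lower, and 16.5% of all genes (2294 of 2497 lower). Leaving out SBR vehicle library 1 gave 10 members called lower and 3.92% of all genes called (526 of 589 lower).

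*Mki67* was at 3.64, 3.54 and 3.37 in sham duodenum and at 3.08, 2.22, 1.72 and 1.50 after SBR with vehicle. The groups did not overlap, with a difference of -1.39 (SE 0.46, adjusted p = 0.274, exact permutation p = 0.0571). *Cdk1* was at 1.95, 1.97 and 1.96 in sham and at 1.63, 1.12, 0.65 and 0.64 after SBR, a difference of -0.95 (SE 0.32, adjusted p = 0.274). In both genes library 1 of SBR vehicle was the nearest to sham, and libraries 3 and 4 were the farthest. *Ccnb1* was at 1.77, 1.83 and 1.87 in sham and at 1.55, 1.20, 0.43 and 0.45 after SBR (difference -0.91, SE 0.34, adjusted p = 0.275). *Top2a* was at 3.04, 2.95 and 2.64 in sham and at 2.65, 1.89, 1.24 and 1.18 after SBR (difference -1.15, SE 0.40, adjusted p = 0.274), with library 1 just inside the sham range. The other mitosis members differed by between -0.59 (*Birc5*) and -1.41 (*Cdc20*).

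*Pcna* had the largest difference in the duodenum. It was at 4.18, 4.83 and 4.43 in sham and at 4.05, 2.65, 2.81 and 2.12 after SBR with vehicle, a difference of -1.57 (SE 0.50, adjusted p = 0.274, exact permutation p = 0.0571). *Mcm7* was at 3.44, 3.45 and 3.97 in sham and at 3.27, 2.24, 1.94 and 1.64 after SBR (difference -1.35, SE 0.43, adjusted p = 0.274). *Rrm1* was at 2.45, 2.35 and 2.30 in sham and at 2.05, 1.34, 0.95 and 0.90 after SBR (difference -1.06, SE 0.34, adjusted p = 0.274). None of these 3 overlapped. *Mcm2* was at 2.70, 2.43 and 2.96 in sham and at 2.70, 1.53, 1.09 and 1.20 after SBR, with library 1 within the sham range (difference -1.06, SE 0.40, adjusted p = 0.276). *Ccnd1* was at 4.09, 3.75 and 4.69 in sham and at 4.93, 3.08, 2.56 and 3.16 after SBR, library 1 being above all sham libraries (difference -0.74, SE 0.53, adjusted p = 0.466). *E2f1* differed by -0.76 (adjusted p = 0.409) with sham values as far apart as 1.58 and 3.06.

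**Figure D4:**
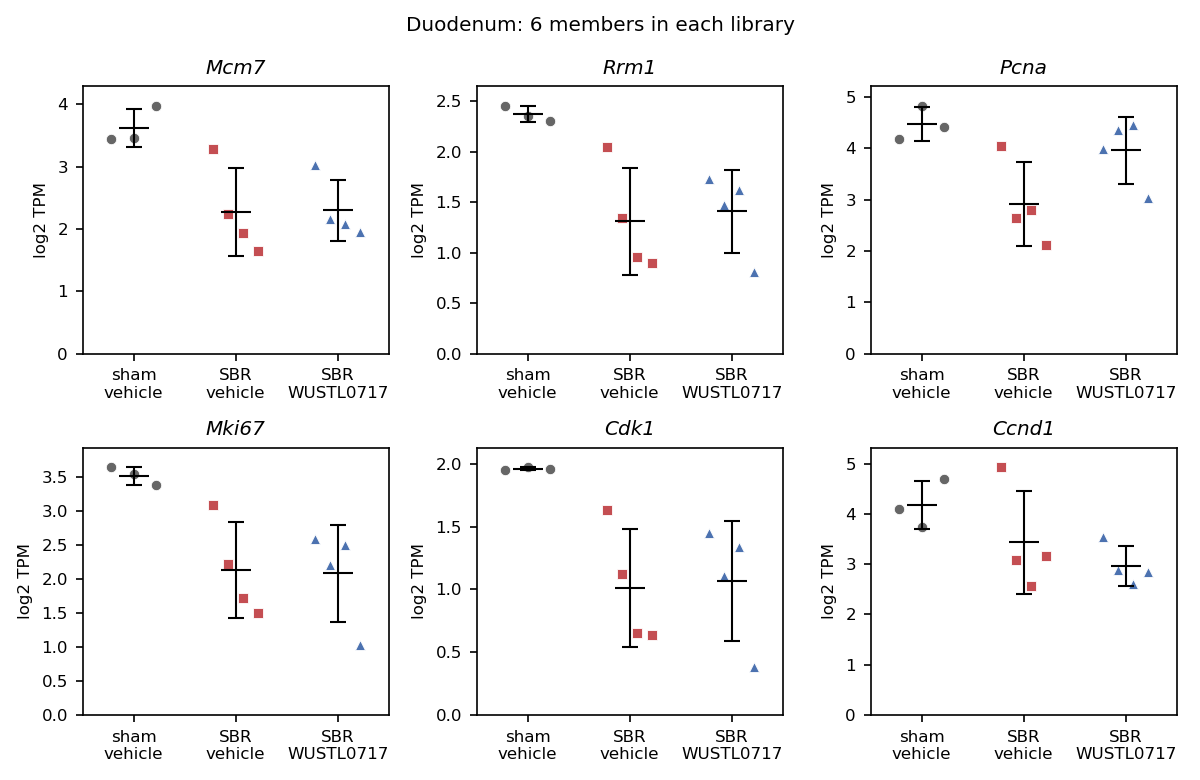
Each panel plots the log2 TPM of 1 member in every duodenal library (points) by group, with black bars for the group mean and its SD (n = 3, 4 and 4). The SBR vehicle points of *Mcm7*, *Rrm1*, *Pcna*, *Mki67* and *Cdk1* lie below all sham points, and the first of the 4 lies nearest to sham.

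Counted by library, 15, 35, 34 and 36 of the 36 members were below every sham library in SBR vehicle libraries 1 to 4, and 28, 34, 35 and 36 were so in SBR WUSTL0717 libraries 1 to 4. Of all genes tested in the duodenum, 11.4%, 58.1%, 37.6% and 57.9% lay below every sham library in those SBR vehicle libraries, and 23%, 50.9%, 42.7% and 45.4% in the SBR WUSTL0717 ones. The mean over the members was 2.51, 2.46 and 2.85 in sham, 2.54, 1.69, 1.26 and 1.24 in SBR vehicle, and 2.17, 1.62, 1.67 and 1.17 in SBR WUSTL0717. Of 9 crypt stem cell markers tested 8 were lower after SBR with vehicle (median -1.23), *Olfm4* by -1.23 with an adjusted p of 0.274, and their summed level was 6.69 to 7.68 in sham and 5.78 to 6.90 after SBR. All 7 Paneth cell markers were lower (median -1.71, summed level 9.04 to 9.80 in sham and 7.30 to 7.80 after SBR). Of 14 villus enterocyte markers 13 were higher (median 0.56), with sums of 12.40 to 13.76 in sham and 13.28 to 13.68 after SBR, and none of these markers was called. The B cell sum was 3.56 to 3.70 in sham and 2.84 to 3.28 after SBR, and the plasma cell sum was 9.42 to 9.74 in sham and 8.01 to 9.42 after SBR. Among these 5 sums, those of Paneth cells and B cells did not overlap between the groups. Exocrine pancreas sums ranged from 4.61 to 10.74 over the duodenal libraries, with the lowest in SBR vehicle library 1. The part of cell makeup in the member values was not tested.

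Other cell cycle genes in the duodenum were counted in the same way. Of 34 other mitosis genes all 34 were lower (median -0.83), of 28 other S phase genes 27 (median -0.77), of 14 other G1 genes 12 (median -0.74) and of 13 inhibitors and pocket proteins 9 (median -0.32). None was called. The smallest p in these lists belonged to *Kif20a* (-1.15), *Pold2* (-1.62), *Cdk6* (-0.93) and *Cdkn1a*, which was higher by 1.35 with no overlap (adjusted p = 0.274 for all but *Cdk6*, at 0.281).

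No difference of the members with WUSTL0717 was detected in the duodenum. Against SBR vehicle 16 of 33 were higher and 17 lower, the median was -0.02 (all genes 0.04), and 0 were called, where 0.258% of all genes were called (39 of 15093). *Pcna* was the exception in size, at 3.99, 4.35, 4.46 and 3.04 with WUSTL0717, higher by 1.05 (SE 0.46) with overlapping groups, an adjusted p of 0.896 and an exact permutation p of 0.0857; it was the only member at an unadjusted p below 0.05, where 3.66% of all genes were so and higher. Limma with array weights also called 0 members, where it called 0.563% of all genes. The median ran from -0.23 without WUSTL0717 library 1 to 0.26 without SBR vehicle library 1. The other 32 members differed by between -0.47 (*Cdt1* and *Ccnd1*) and 0.38 (*Tyms*). *Mki67* was at 2.59, 2.20, 2.50 and 1.04 with WUSTL0717 and *Top2a* at 2.05, 1.95, 1.93 and 1.03, with differences of -0.05 (SE 0.43) and 0.00 (SE 0.37) and both adjusted p at 1. *Foxm1* differed by -0.27 (SE 0.37, adjusted p of 1).

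Compared with sham, all 33 members were lower in the duodenum of SBR mice given WUSTL0717, by a median of -0.96 (all genes -0.32), and 0 were called, where 0.802% of all genes were called (121 of 15093). At an unadjusted p below 0.05, 22 were lower, against 12% of all genes, limma with array weights called 11 members and 7.45% of all genes, and 25 had every treated library below every sham library, against 12.8% of all genes. *Tpx2* had the smallest adjusted p, 0.187, with sham values of 2.31, 2.00 and 2.20, WUSTL0717 values of 1.46, 0.95, 1.33 and 0.36, and a difference of -1.15 (SE 0.36). *Mki67* differed by -1.44 (SE 0.46, adjusted p = 0.198) and *Ccnd1* by -1.21 (SE 0.53, adjusted p = 0.276), both with no overlap. *Pcna* differed by -0.52 (SE 0.50, adjusted p = 0.595) and overlapped with sham. With centred libraries the member median was -0.60 (all genes 0.04), with 0 members and 2.58% of all genes called. In the WUSTL0717 libraries the Paneth cell sum was 7.29 to 8.71, the B cell sum 2.39 to 3.11 and the plasma cell sum 7.50 to 8.45, all below the sham ranges given above, the villus enterocyte sum was 13.98 to 14.82, above sham, and the crypt stem cell sum was 5.48 to 6.74, overlapping with sham. Their part in the member values was not tested. The sham libraries are those of the comparison with SBR vehicle.

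**Figure D5:**
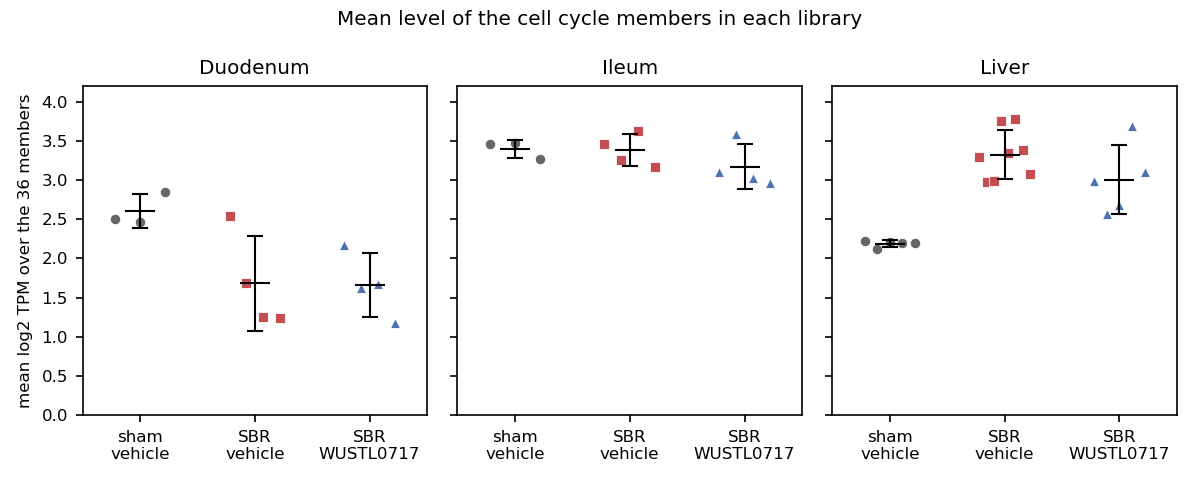
Each point is the mean log2 TPM over the 36 members in 1 library, by group and tissue, with black bars for the group mean and its SD. Duodenal SBR libraries reach down to 1.17 from 2.46 to 2.85 in sham, ileal libraries stay between 2.96 and 3.63, and liver SBR libraries lie at 2.57 to 3.78 above 2.12 to 2.23 in sham. The panels share a vertical axis, but liver values are on their own batch scale and are not to be compared with intestinal ones.

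In the ileum after SBR with vehicle the members sat close to sham. Of 36, 14 were higher and 22 lower, with a median of -0.02 (range -0.44 to 0.29, all genes 0.07), 0 were called by limma where 0.349% of all genes were called (55 of 15772), and 0 reached an unadjusted p of 0.05. Over fits without 1 library the median ran from -0.11 to 0.05, and the goblet cell sum was above sham with no overlap (8.32 to 8.72 in sham, 9.04 to 9.35 after SBR). *Mki67* was at 4.59, 4.80 and 4.11 in sham and at 4.55, 4.12, 4.64 and 4.41 after SBR (difference -0.07, SE 0.29, adjusted p = 0.994). *Pcna* was at 5.83, 5.48 and 4.72 in sham and at 5.35, 4.69, 5.32 and 4.28 after SBR, the largest difference at -0.44 (SE 0.40, adjusted p = 0.926). The groups overlapped in both. *Mcm2*, *Top2a*, *Cdk1* and *Ccnb1* differed by -0.18, -0.16, 0.03 and 0.04, and *Ccnb2*, the other mitotic B cyclin, was the highest at 0.29 (SE 0.29, adjusted p = 0.939).

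With WUSTL0717 the members of the ileum were lower than with vehicle in 35 of 36 cases, by small amounts (median -0.19, all genes 0.00), and 0 were called, where 0.0697% of all genes were called (11 of 15772). Only *Ccnd1* reached an unadjusted p below 0.05, where 2.75% of all genes were so and lower. Limma with array weights also called 0 members, and 0.114% of all genes. The member median was -0.36 with array weights, -0.34 without WUSTL0717 library 2, -0.11 without WUSTL0717 library 4 (31 of 36 lower) and -0.11 without SBR vehicle library 3 (29 of 36 lower). *Ccnd1* stood out from the other members. It was at 7.04, 6.80 and 7.18 in sham, at 6.69, 7.00, 7.15 and 6.84 after SBR with vehicle, and at 6.06, 6.41, 5.45 and 6.08 with WUSTL0717. All 4 treated libraries were below all 7 others (1.27% of all genes were lower than vehicle with no overlap), and the difference from vehicle was -0.92 (SE 0.26, limma p = 0.00408, adjusted p = 0.463), with an exact permutation p of 0.0286, the smallest that 4 against 4 allows. The next largest difference was that of *Ccnb2*, -0.47 (SE 0.27, adjusted p = 0.834), and *E2f1* had a difference of -0.34 (SE 0.21, adjusted p = 0.857). *Mki67* was at 4.18, 4.74, 3.93 and 3.90 (difference -0.24, SE 0.26) and *Pcna* at 4.76, 5.84, 4.52 and 4.70 (difference 0.05, SE 0.37), with library 2 the highest in both. Of the G1 genes outside the list, *Myc* was at -1.23 (adjusted p = 0.56), and of the inhibitors *Cdkn1a* was at 0.98 (adjusted p = 0.715). Of 14 villus enterocyte markers 12 were higher and all 7 Paneth cell markers lower with WUSTL0717, none called.

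Against sham, 34 of 36 ileal members were lower with WUSTL0717 (median -0.20, all genes 0.07), and 0 were called, where 2.17% of all genes were called (343 of 15772). *Ccnd1*, the 1 member at an unadjusted p below 0.05 (4.35% of all genes were so and lower), had a difference of -1.01 (SE 0.28) and an adjusted p of 0.0967, and became the 1 member called when limma used array weights (adjusted p = 0.029), which called 4.84% of all genes. *Ccnd1* and *E2f1* were the 2 of 36 members lower with no overlap between these groups, against 3.73% of all genes. The member median was -0.33 both with array weights and without WUSTL0717 library 2. Of the marker sums, 4 did not overlap between these groups. The epithelial sum was 11.27 to 11.45 in sham and 11.87 to 12.52 with WUSTL0717, the goblet cell sum 8.32 to 8.72 and 9.33 to 9.76, the germinal centre B cell sum 3.94 to 4.52 and 2.55 to 3.37, and the hepatocyte sum 11.19 to 11.39 and 11.74 to 13.83. Their part in the member values was not tested.

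Levels were compared between the regions within batch 1. All 36 members were higher in the ileum than in the duodenum over the 3 groups, by a median of 1.30 (all genes 0.83), and 35 were called, where 62% of all genes were called higher in the ileum and 71.6% in either direction. *Ccnd1* had the largest difference, 3.12 (SE 0.24, adjusted p = 9.95e-10), followed by *Cdc20* at 2.16 (SE 0.22, adjusted p = 6.46e-08), and *Rrm2* was the member not called (0.24, adjusted p = 0.534). After such centring the member median was 0.54 against 0.07 for all genes, 25 members were called, where 46.1% of all genes were, and 2 were lower in the ileum. Marker sums also differed between the regions with no overlap: the epithelial sum was 11.27 to 12.52 in ileal and 9.13 to 10.91 in duodenal libraries, the Paneth cell sum 11.03 to 13.43 and 7.29 to 9.80, and the exocrine pancreas sum 1.42 to 2.02 and 4.61 to 10.74. Goblet cell sums were narrowly apart too, at 8.324 to 9.755 in ileal and 7.337 to 8.320 in duodenal libraries. The part of these sums in the member levels was not tested. The effect of SBR differed between ileum and duodenum by a median of 0.94 over the members (all genes 0.44), with all 36 above 0, and 0 were called, where 0.0754% of all genes were called. At an unadjusted p below 0.05, 16 were above 0, against 11.2% of all genes, and limma with array weights called 18 members and 12.5% of all genes. With centred libraries the member median was 0.47 (all genes -0.03) and 3 members were below 0. *Cdc20* had a difference of 1.50 (SE 0.56, adjusted p = 0.308) and *Mki67* one of 1.31 (SE 0.55, adjusted p = 0.334). The effect of WUSTL0717 differed by a median of -0.18 (all genes -0.03), and 0 members were called, where 0.0251% of all genes were called. None reached an unadjusted p below 0.05.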

How the data were processed

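RNA of the duodenum, ileum and liver was sequenced after removal of ribosomal RNA. The authors aligned reads with STAR to the mouse genome (GRCm38, Ensembl annotation), counted them with featureCounts, normalized with edgeR (TMM), and deposited log2 TPM values after ComBat batch correction. The pseudocount and the ComBat covariates are not given in the sources used here. ComBat can shrink or shift differences that run with batch, and tissue ran with batch here. It can also rescale the spread of a gene within a batch, so fold changes within a tissue are those of the corrected values. No deposited column was left unused (0 unused columns), and depth is unknown, so no counting interval is given.

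For each tissue, limma 3.58.1 (R 4.3.3, variance trend) was fitted to its 3 groups over those genes whose mean log2 TPM there reached 1, with Benjamini-Hochberg adjustment over all genes tested and a threshold of 0.05. This test was chosen in place of the t and Wilcoxon tests of the study because it shares the spread over genes. Single members were also given an exact two-sided permutation test. Regions were compared over the 22 intestinal libraries. The fits were also run on simulated data with planted changes, as a check of the code that bears on no result given here.

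The alternatives were no filter on low values, TPM logged again with a pseudocount of 5, libraries centred on their median, a two-sample test, array weights, a replicate block, and leaving out each library in turn. Values are given in full for *Mki67*, *Top2a*, *Pcna*, *Mcm2*, *Cdk1*, *Ccnb1* and *Ccnd1*, for up to 6 called members with the smallest p in each direction of a comparison, and for the member with the smallest p in each role; from each pathway list at most 3 genes with the smallest p are named. Members named beyond this were chosen after their values were seen. The members, lists and tests were chosen with earlier results of these data known. Gene positions are from GENCODE for GRCm38, and figures were drawn with Python 3.11.15.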

Additional observations from a re-analysis of the deposited data

Results flagged for a closer look

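The members named by the rule, and means over members, were checked for outlying libraries. In groups of 4 to 10 libraries, 16 of 147 tests found a value far from the rest of its group. Chance gives about 1 in 20 for independent tests, and these were not independent, because 1 library could stand out in several genes. WUSTL0717 library 4 of the liver was the high one in 6 genes. It was at 6.99 for *Ccnd1* (others 5.81 to 6.12), 2.88 for *Cdc45* (1.82 to 2.02), 4.02 for *Mcm2* (2.87 to 3.19), 4.81 for *Mcm6* (3.47 to 3.76), 4.62 for *Mcm7* (3.86 to 3.94) and 3.13 for *Rrm1* (2.48 to 2.58). SBR vehicle library 4 of the liver was at 3.31 for *E2f1* (2.50 to 2.86) and 4.31 for *Mcm2* (3.04 to 3.48). In sham liver, library 1 was at 2.76 for *Foxm1* (1.43 to 1.62), and library 5 at 2.55 for *Mki67* (2.40 to 2.44). In the ileum, WUSTL0717 library 2 was at 3.09 for *Cdk1* (2.34 to 2.44), 2.94 for *Foxm1* (2.47 to 2.53) and 3.85 for *Mcm2* (3.09 to 3.21), and SBR vehicle library 4 was at 4.41 for *Cdc20* (4.93 to 4.99). In the duodenum, SBR vehicle library 1 was at 3.03 for *Ccnb2* (1.68 to 1.71), and WUSTL0717 library 4 at 1.03 for *Top2a* (1.93 to 2.05).

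Among the members named by the rule, the only ones checked for this, some had every SBR library on one side of sham in the liver and on the other side in an intestinal region. These differences between tissues were not tested, because tissue and batch cannot be told apart. For SBR vehicle against sham, the liver difference minus the duodenal difference was 2.26 for *Ccnb1*, 3.13 for *Ccnb2*, 1.35 for *Cdc45*, 2.12 for *Cdk1*, 2.86 for *Mcm6*, 3.41 for *Mki67* and 2.39 for *Tpx2*. For SBR WUSTL0717 against sham, liver minus duodenum was 1.73 for *Ccnb1*, 3.42 for *Ccnd1*, 3.47 for *Cdc20*, 1.30 for *Cdc45*, 1.71 for *Cdk1*, 2.27 for *Mcm2*, 2.42 for *Mcm6*, 1.80 for *Mcm7*, 2.88 for *Mki67*, 1.39 for *Rrm1*, 2.16 for *Top2a* and 2.18 for *Tpx2*. Liver minus ileum in the same contrast was 3.22 for *Ccnd1* and 0.98 for *E2f1*.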

How the results depend on the processing

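Array weights raised calls over all genes too. They called 19 members (16.5% of all genes) for SBR vehicle against sham and 11 (7.45%) for SBR WUSTL0717 against sham in the duodenum, 1 (4.84%) for SBR WUSTL0717 against sham in the ileum, 13 (17.7%) for WUSTL0717 against vehicle in the liver, and 18 (12.5%) for the difference of the SBR effect between regions. Centring each library gave 4 calls (19.7% of all genes) for WUSTL0717 against vehicle in the liver and 16 (19.6%) for SBR WUSTL0717 against sham there. Centring moved the member median to 0.71 for SBR vehicle against sham in the liver, -0.60 for SBR WUSTL0717 against sham in the duodenum, 0.54 for the level in ileum minus duodenum and 0.47 for the difference of the SBR effect. A pseudocount of 5 moved the first 2 of these to 0.60 and -0.47, and gave -0.48 for SBR vehicle against sham in the duodenum, 0.43 and -0.21 for SBR WUSTL0717 against sham and against vehicle in the liver, and -0.13 for SBR WUSTL0717 against sham in the ileum. The remaining 56 counts under these settings stayed within 1.5 times the reported count. Of the medians 57 stayed within the replicate spread, and the -0.48 and -0.13 given above are among these. Causes of the changes were not tested.

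Leaving out 1 library gave 0 to 10 calls for SBR vehicle against sham in the duodenum (10 without SBR vehicle library 1, all genes 0% to 3.92%), 0 to 6 for WUSTL0717 against vehicle in the liver (6 without WUSTL0717 library 4, all genes 0.585% to 6.76%), 17 to 27 for SBR WUSTL0717 against sham in the liver (all genes 15.4% to 30.7%), and 32 to 35 for SBR vehicle against sham there (all genes 34% to 56.7%). With the replicate block, 34 members (35.1% of all genes) were called in the liver for SBR vehicle against sham, 31 (38.2%) for SBR WUSTL0717 against sham, and 0 in the other 7 comparisons within a tissue. Among these 7, 3.05% of all genes were called for WUSTL0717 against vehicle in the liver, and 0.558% for SBR WUSTL0717 against sham in the ileum. Correlations of same-numbered libraries ran from -0.320 to 0.329, and in no comparison was every one above 0.1, so the numbers were not taken to pair the samples.

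Signs turned for some uncalled members, the largest being *Ccnd1* in the duodenum, at -0.47 for WUSTL0717 against vehicle and at 0.032 without SBR vehicle library 1. For WUSTL0717 against vehicle in the duodenum, *Top2a* was at -0.015 with a pseudocount of 5 and -0.039 when centred, and *Mki67* at 0.23 with array weights. For SBR vehicle against sham in the ileum, *Cdk1* was at -0.048 and *Ccnb1* at -0.033 when centred, and for WUSTL0717 against vehicle *Pcna* was at -0.37 with array weights. Over fits without 1 library, WUSTL0717 against vehicle in the duodenum ranged from -0.26 to 0.30 for *Mki67*, -0.18 to 0.31 for *Top2a*, -0.31 to 0.22 for *Mcm2*, -0.070 to 0.28 for *Cdk1*, -0.038 to 0.34 for *Ccnb1*, -0.76 to 0.032 for *Ccnd1* and -0.49 to 0.026 for *Foxm1*. SBR vehicle against sham in the ileum ranged from -0.27 to 0.079 for *Mki67*, -0.051 to 0.13 for *Cdk1*, -0.14 to 0.22 for *Ccnb1* and -0.14 to 0.0038 for *E2f1*. WUSTL0717 against vehicle in the ileum ranged from -0.25 to 0.19 for *Pcna*, -0.25 to 0.055 for *Mcm2* and -0.64 to 0.0089 for *Rrm2*.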

Other observations

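Counted by library in the liver, 29 to 36 of the 36 members were above every sham library in the SBR vehicle libraries, and 32, 27, 28, 36 and 34 were so in WUSTL0717 libraries 1 to 5. Of all genes tested in the liver, 20.4% to 73.9% lay above every sham library in the SBR vehicle libraries, and 62.2%, 51.5%, 48.4%, 73.3% and 55.8% in those WUSTL0717 libraries. Among SBR vehicle livers the order depended on the role: library 4 had the highest mean over the 17 G1 and S phase members (4.11) and library 6 the highest over the 19 G2 and mitosis members (3.93). *Tk1* was lower than in sham also with WUSTL0717, by -0.55 with an adjusted p of 0.0114 (limma), whereas *Mcm10* was at -0.39 with an adjusted p of 0.0977. *Cdkn1a* was above sham with no overlap in the duodenum, ileum and liver of SBR mice given WUSTL0717, by 1.55 (adjusted p = 0.132), 1.75 (adjusted p = 0.0821) and 1.86 (adjusted p = 0.00542).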
